A study of Mus musculus with 10 samples.

Results

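Olfactory receptor genes, the Olfr genes of the mouse, were counted in RNA from blood leukocytes, and 35 of the 1134 such genes among the 32285 genes of the table were chosen by their measured level, at least 1 CPM in at least 1 of 10 libraries, where CPM is the raw count scaled to a library total of 1000000. The 35 were parted by the 7 libraries rich in haemoglobin RNA: 8 genes reached 1 CPM in at least 1 of those 7, and the other 27 did so only among SD 48 h, SASD 48 h and Con. The levels in all 10 libraries chose and parted these genes, so the levels are given as a description with no test, and the contrast of SD with SASD over the shared times, which is not itself part of the rule, is the tested one. The genes nearest to 1 CPM were Olfr846, Olfr5 and Olfr1152 inside, each at 1.02 CPM in Con, and Olfr71 and Olfr54 at 0.982 CPM and Olfr433 at 0.945 CPM in Con outside. At the limit that parts the 8 from the 27 the nearest genes were Olfr77 at 1.34 CPM (SD 12 h), Olfr98 at 1.38 (SASD 120 h) and Olfr456 at 1.44 (SD 12 h) on one side, and Olfr1033 at 0.941 (SASD 12 h), Olfr157 at 0.418 (SASD 12 h) and Olfr524 at 0.191 (SD 12 h) on the other.

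The mice were C57/BL6J animals under sleep deprivation (SD) for 6, 12, 24 or 48 h, under a published sleep restriction method (SASD) for 6, 12, 24, 48 or 120 h, or under the control condition at 0 h (Con). Every group was 1 library, made from the pooled blood RNA of 3 mice, so a difference between 2 libraries has no replicate check. Blood was drawn behind the eye into EDTA under pentobarbital, and the cells are labelled as leukocytes; the labels do not describe the SD and SASD procedures or the age and sex of the animals. Totals ran between 7825120 counts (SASD 24 h) and 27501393 counts (Con), and haemoglobin genes took 0.316% of the counts in SD 48 h, 0.275% in SASD 48 h and 0.727% in Con, against 3.57% to 6.96% in the 7 haemoglobin-rich libraries.

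Olfactory receptors are G protein-coupled receptors that cross the membrane with 7 helices. Each olfactory sensory neuron of the nose normally expresses a single allele of a single receptor gene and keeps the rest of the family silent, and binding of an odorant activates the G protein Golf (Gnal), adenylate cyclase 3 (Adcy3) and a cyclic nucleotide-gated channel (Cnga2). The genes lie in clusters on most chromosomes, usually have 1 coding exon behind noncoding ones, and a few have been studied in tissues other than the nose, among them Olfr544, a receptor for azelaic acid in metabolic tissues, and Olfr78, a receptor for short-chain fatty acids.

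The label of the cells was checked against marker genes. All 6 leukocyte markers, among them Ptprc (CD45), and all 6 markers each of neutrophils, monocytes, B cells, T cells and NK cells were at 1 CPM or more in all 10 libraries. Defining genes of the olfactory neuron were not: Omp, the olfactory marker protein gene, lay between 0.128 and 1.17 CPM, Cnga2 had 1 count and Rtp1, which carries receptors to the cell surface, 2 counts over the 10 libraries, and Gng13, a G protein subunit of these neurons, had 0. Of 16 olfactory neuron genes 3 were at 1 CPM or more in all 10 libraries, Adcy3 (12.5 to 17.7 CPM), Gnal (3.07 to 7.42 CPM) and Pde1c (1.01 to 4.44 CPM). Altogether 6 of the 16 reached 1 CPM in some library, the others being Omp, Cngb1, a subunit of the odorant-gated channel, at up to 2.91 CPM in Con, and Ano2, a chloride channel of these neurons, at up to 1.93 CPM in Con. Among 16 more widely expressed genes that take part in receptor choice or signalling in the nose, 10 were at 1 CPM or more throughout, led by Ebf1, a B cell transcription factor as well, at 198 to 509 CPM. Of 8 support cell genes of the olfactory mucosa 1 reached 1 CPM, Cyp2f2 at 1.78 CPM in Con.

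The coding stretches of the 8 genes seen in haemoglobin-rich libraries are shown because reads of close copies decide which of these genes can be told apart. The capitals mark ATGGC, any 4 bases, then GANNGNT and any 2 bases, searched in frame on the coding strand starting between codons 90 and 140, where most receptors carry Met-Ala, any residue and then Asp-Arg-Tyr at the inner end of the third membrane helix. These letters were found in 8 of the 8 genes, in 23 of the 27 and in 77.5% of all 1134. Each line gives 66 bases read 5′ to 3′ on the coding strand from the GENCODE mouse transcripts, with their place in GRCm38 (mm10).
Olfr99 (chr17:37280035-37280100, -): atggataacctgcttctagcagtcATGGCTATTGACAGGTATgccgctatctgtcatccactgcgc
Olfr98 (chr17:37263279-37263344, -): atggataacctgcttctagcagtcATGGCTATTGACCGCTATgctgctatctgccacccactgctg
Olfr56 (chr11:49134524-49134589, +): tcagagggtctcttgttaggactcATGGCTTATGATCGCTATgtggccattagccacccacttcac
Olfr164 (chr16:19286340-19286405, -): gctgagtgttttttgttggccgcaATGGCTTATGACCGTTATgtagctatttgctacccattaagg
Olfr457 (chr6:42471784-42471849, -): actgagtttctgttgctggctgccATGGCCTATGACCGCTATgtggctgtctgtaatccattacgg
Olfr456 (chr6:42486802-42486867, -): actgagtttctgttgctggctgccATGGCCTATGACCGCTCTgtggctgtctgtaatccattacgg
Olfr173 (chr16:58797452-58797517, -): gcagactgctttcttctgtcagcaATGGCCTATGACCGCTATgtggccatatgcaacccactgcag
Olfr77 (chr9:19920538-19920603, +): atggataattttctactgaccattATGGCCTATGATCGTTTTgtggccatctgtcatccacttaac

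Olfr98 and Olfr99 are neighbours with 92.9% identity over 913 aligned coding bases, and their printed stretches differ at 7 of 66 bases. Olfr456 and Olfr457 are neighbours with 95.8% identity over 934 bases, Olfr173 has its closest match in Olfr172 at 96.9%, and Olfr164 in Olfr165 at 89.97% over 937 bases. Among the 8, Olfr77 has the most distant closest match, Olfr39, at 73.7%. The counting command, with no option for pairs that map to several places, leaves out pairs that fit 2 copies equally well, so the levels of these close pairs are uncertain.

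Olfr99 had 4.76 CPM in Con (0 h), then 2.75, 3.16, 2.33 and 3.95 CPM in SD at 6, 12, 24 and 48 h, and 2.08, 3.35, 2.43, 4.96 and 4.55 CPM in SASD at 6, 12, 24, 48 and 120 h. It was the receptor gene with the highest level per kilobase of exon in Con, 2.68 CPM per kb, and its levels in the 3 low-haemoglobin libraries (3.95 to 4.96 CPM) overlapped those in the 7 haemoglobin-rich ones (2.08 to 4.55 CPM). Olfr98, its neighbour, had 1.31 CPM in Con, 0.915, 0.191, 0.269 and 0.503 CPM in the SD series and 0.541, 0.418, 0.128, 1.57 and 1.38 CPM in the SASD series. Both genes were highest in SASD 48 h, and Con, SASD 48 h and SASD 120 h were the 3 highest libraries of each.

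Both lie on chromosome 17, Olfr98 at 37262711 to 37263749 and Olfr99 at 37279043 to 37283460 on the minus strand, on either side of H2-M3, a class Ib major histocompatibility gene that presents formylated peptides. The gaps to H2-M3 are 6470 and 4558 bases, and H2-M3 itself lay between 23.0 CPM (SASD 24 h) and 59.9 CPM (SASD 48 h). Olfr98 shares 354 of its 1039 exon bases with Gm20429 on the other strand, at 0.297 to 2.10 CPM, and since no strand option stands in the counting command, reads of the shared bases cannot be assigned to a strand.

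Olfr56 had 3.13 CPM in Con, 2.75, 2.30, 2.87 and 2.51 CPM in SD at 6, 12, 24 and 48 h, and 2.80, 4.08, 3.83, 1.37 and 3.17 CPM in SASD at 6, 12, 24, 48 and 120 h. Its lowest library was SASD 48 h and its highest SASD 12 h, and it is one of 3 receptor genes, with Olfr99 and Olfr164, at 1 CPM or more in all 10 libraries. As annotated it runs over chromosome 11 from 48978889 to 49135387 in 8 exon blocks and overlaps 7 other genes of the table. Among them are the interferon-induced GTPase genes Ifi47, Tgtp1 and Tgtp2. It shares 111 exon bases with Ifi47 on its own strand, and Ifi47 lay between 71.4 and 110.7 CPM. How many of the Olfr56 counts fall on its coding exon cannot be read from counts per gene.

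Olfr164, on chromosome 16 at 19284104 to 19314064, had 4.73 CPM in Con, 1.83, 1.34, 1.17 and 1.80 CPM in the SD series and 1.89, 1.78, 2.68, 5.20 and 1.78 CPM in the SASD series. SASD 48 h and Con stood at about the same level, above the other 8 libraries, which include SD 48 h. The ratio of SD 48 h over Con was 0.380 (95% interval 0.237 to 0.586), that of SASD 48 h over Con was 1.10 (0.855 to 1.41), and that of SD 48 h over SASD 48 h was 0.345 (0.216 to 0.533). These intervals, and those that follow, are exact Clopper-Pearson intervals of the counts of 2 libraries and cover counting error only. The nearest gene at 10 CPM or more in all 10 libraries was Iglv3, a variable segment of the immunoglobulin lambda light chain, 42413 bases away. In bulk blood RNA, fewer cells of a type and less RNA per cell cannot be told apart.

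Olfr457 and Olfr456, the chromosome 6 pair 9827 bases apart, were both highest in SD 12 h. Olfr457 had 1.35 CPM in Con, 1.28, 2.78, 1.44 and 0.718 CPM in the SD series and 1.44, 1.05, 1.15, 0.967 and 0.791 CPM in the SASD series. Olfr456 had 0.764 CPM in Con, 0.275, 1.44, 0.898 and 0.503 CPM in the SD series and 0.361, 0.418, 0.767, 0.242 and 0.0989 CPM in the SASD series. For Olfr457 the ratio of SD over SASD was 0.888 (0.401 to 1.94) at 6 h and 2.65 (1.26 to 6.10) at 12 h, and 12 h, with 29 against 10 counts, was singled out after its values were seen. Olfr456 was chosen through SD 12 h alone, with 15 counts there against 4 in SASD 12 h, so that difference is given with no interval.

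Olfr77, on chromosome 9, had 2.15 CPM in Con, 0.458, 1.34, 0.987 and 2.44 CPM in the SD series and 0.812, 0.628, 0.639, 1.29 and 0.495 CPM in the SASD series. Its levels in SD 48 h, SASD 48 h and Con, 1.29 to 2.44 CPM, overlapped those of the haemoglobin-rich libraries, 0.458 to 1.34 CPM, only at SD 12 h. Olfr173, on chromosome 16, had 1.09 CPM in Con, 1.65, 1.05, 0.808 and 0.862 CPM in the SD series and 0.271, 1.26, 0.511, 0.846 and 0.989 CPM in the SASD series, with no library set above the other. For none of the 8 genes did the lowest of SD 48 h, SASD 48 h and Con exceed the highest of the other 7 libraries. Among all genes at 1 CPM or more in a library it did so in 21.0% (3273 of 15609). The 8 were chosen for reaching 1 CPM in at least 1 of those 7, which favours overlap, so nothing is read from this count.

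**Figure D1:**
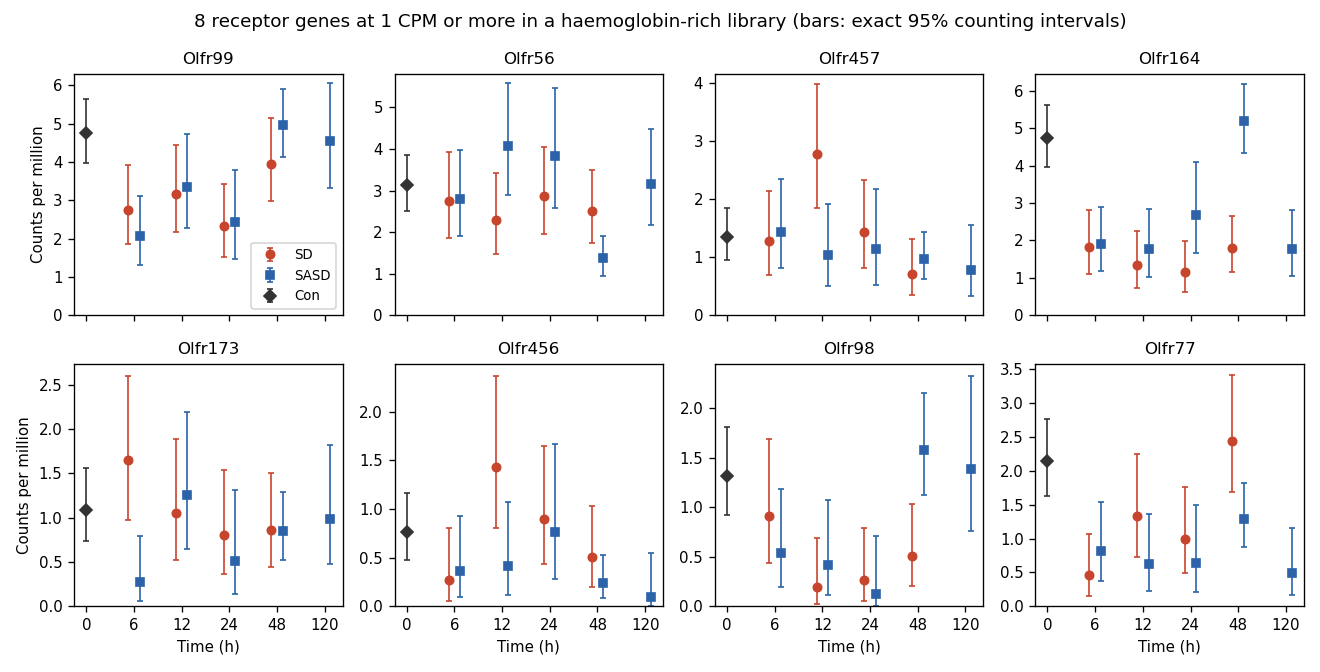
CPM (y axes) by time in hours (x axes, unevenly spaced) for the 8 receptor genes at 1 CPM or more in a haemoglobin-rich library, with SD as circles, SASD as squares, Con as a diamond at 0 h and bars for exact 95% counting intervals. Olfr99 lies between 2.08 and 4.96 CPM, and Olfr164 stands at 5.20 CPM in SASD 48 h and 4.73 CPM in Con, against 1.17 to 2.68 CPM in the other 8 libraries.

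The 27 genes seen only in SD 48 h, SASD 48 h and Con are led by Olfr282. The coding stretches of 5 of them are shown in the same way, the 4 of highest mean level over those libraries that hold the letters in capitals and Olfr281, the neighbour and closest match of Olfr282 (83.1% over 905 bases).
Olfr282 (chr15:98437798-98437863, +): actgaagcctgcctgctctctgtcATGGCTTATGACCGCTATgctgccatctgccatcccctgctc
Olfr281 (chr15:98456639-98456704, +): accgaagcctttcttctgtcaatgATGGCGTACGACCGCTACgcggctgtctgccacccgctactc
Olfr524 (chr7:140202370-140202435, -): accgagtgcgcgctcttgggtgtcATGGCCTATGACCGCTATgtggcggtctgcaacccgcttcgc
Olfr204 (chr16:59315016-59315081, -): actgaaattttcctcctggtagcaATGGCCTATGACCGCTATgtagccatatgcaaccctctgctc
Olfr1220 (chr2:89097536-89097601, -): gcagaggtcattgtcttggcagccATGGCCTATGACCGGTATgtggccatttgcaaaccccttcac

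Olfr282, on chromosome 15 at 98431225 to 98438638, had 0.646 CPM in SD 48 h, 0.927 CPM in SASD 48 h and 3.09 CPM in Con, which are 9, 23 and 85 counts, and no count in the other 7 libraries. A count of 0 in 1 of those libraries allows up to 0.331 CPM (SD 24 h) to 0.471 CPM (SASD 24 h), the upper ends of the exact 95% intervals. Olfr524, on chromosome 7, had 7, 30 and 55 counts in SD 48 h, SASD 48 h and Con, the first 2 being 0.503 and 1.21 CPM, and at most 0.191 CPM in the other 7. Olfr204, on chromosome 16, had 0.215, 1.01 and 1.67 CPM in SD 48 h, SASD 48 h and Con and no count in the other 7.

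Olfr1033 differs from the remaining 26, since it has counts in all 10 libraries: 0.718 CPM in SD 48 h, 0.645 CPM in SASD 48 h and 1.49 CPM in Con, against 0.0989 CPM (SASD 120 h) to 0.941 CPM (SASD 12 h) in the other 7. Olfr157 comes next, with 0.215, 0.443 and 1.93 CPM in SD 48 h, SASD 48 h and Con and at most 0.418 CPM elsewhere. Both sets of libraries overlapped for these 2 genes. Olfr1220 had 0.287, 0.484 and 2.11 CPM, Olfr718-ps1 had 0.0718, 0.806 and 1.89 CPM, and Olfr281 had 0.0718, 0.846 and 1.67 CPM in SD 48 h, SASD 48 h and Con, and none of the 3 had a count in the other 7 libraries. Olfr718-ps1 is the member whose symbol marks it as a pseudogene, although the annotation used here lists it as protein coding.

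The remaining genes of the 12 highest were Olfr1330, Olfr1361, Olfr971 and Olfr286. Olfr1330 had 0.144, 0.685 and 1.67 CPM in SD 48 h, SASD 48 h and Con. Olfr1361 had 0.287, 0.927 and 1.05 CPM in these libraries. Olfr971 had 0.359, 0.484 and 1.42 CPM, and Olfr286 had 0.0718, 0.766 and 1.38 CPM. Con was the highest library of each and SD 48 h the lowest of the 3, while 1 count each of Olfr1330 and Olfr971, both in SASD 6 h, is all that these 4 genes had in the other 7 libraries.

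Over the 27 genes, 20 had no count in any of the 7 haemoglobin-rich libraries, whose counts of the 27 came to 52 in all, 29 of them of Olfr1033. In 22 of the 27 the lowest of SD 48 h, SASD 48 h and Con exceeded the highest of the other 7. Over all genes of the table at 1 CPM or more in a library this held for 21.0% (3273 of 15609), and the reverse for 3.89% (607 genes). Because the same levels chose the 27, nothing is read from this count. At 1 CPM or more were 0 of the 27 in SD 48 h, 3 in SASD 48 h and 26 in Con, and the gene not at 1 CPM in Con, Olfr981, had 0.0718 CPM in SD 48 h, 1.05 CPM in SASD 48 h and 0.618 CPM in Con.

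**Figure D2:**
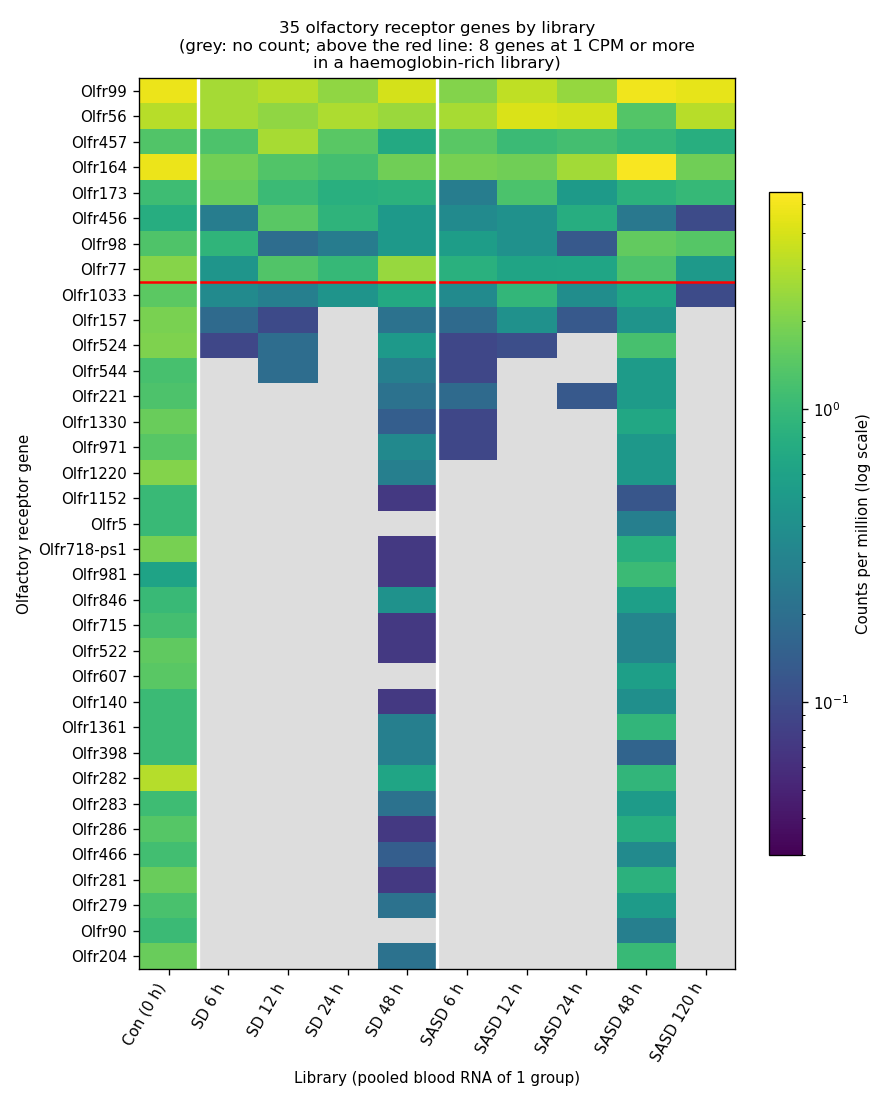
CPM of the 35 receptor genes (rows) in each library (columns, Con at 0 h, then SD and SASD by time), on a logarithmic colour scale with grey for no count. The 8 genes above the red line are coloured in every column, and of the 27 below it 20 are grey in all 7 haemoglobin-rich libraries.

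Summed over genes, the 8 came to 13.3 CPM in SD 48 h, 16.4 in SASD 48 h and 19.3 in Con, against 10.2 to 13.6 CPM in the 7 haemoglobin-rich libraries. The 27 came to 5.74, 15.8 and 38.3 CPM in SD 48 h, SASD 48 h and Con, against 0.0989 to 1.46 CPM. The 1099 receptor genes that are not members came to 32.1, 91.6 and 178.9 CPM in the same 3 libraries, against 3.95 to 6.86 CPM. The 8 genes thus made up 26.0%, 13.3% and 8.15% of all receptor counts in SD 48 h, SASD 48 h and Con, and 56.2% to 73.6% in the other 7 libraries.

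Depth differed between the libraries, so the number of receptor genes with a count was also computed for the depth of the smallest library, 7825120 counts. At that depth 18.9% of the 1134 genes would have a count in SD 48 h, 38.2% in SASD 48 h and 54.0% in Con, against 2.65% to 4.18% in the 7 haemoglobin-rich libraries. Without this step the shares were 27.5%, 61.7% and 77.1%, against 2.65% to 5.03%, so the same 3 libraries stood apart either way. Other values moved with them: the summed level of 8 red cell genes was 2945 to 7826 CPM in SD 48 h, SASD 48 h and Con against 37797 to 77750 CPM in the other 7. For 6 platelet genes it was 1486 to 2876 against 2906 to 7145 CPM, and for 6 NK cell genes 511 to 566 against 301 to 452 CPM. Single genes of these lists overlapped between the sets of libraries, namely Pf4, Itga2b, Gp1bb and Treml1 of platelets and Klrb1c, Prf1 and Klrd1 of NK cells. The sums of the leukocyte, neutrophil, monocyte, B cell and T cell genes overlapped as well. The part of these cells in the receptor counts was not tested.

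**Figure D3:**
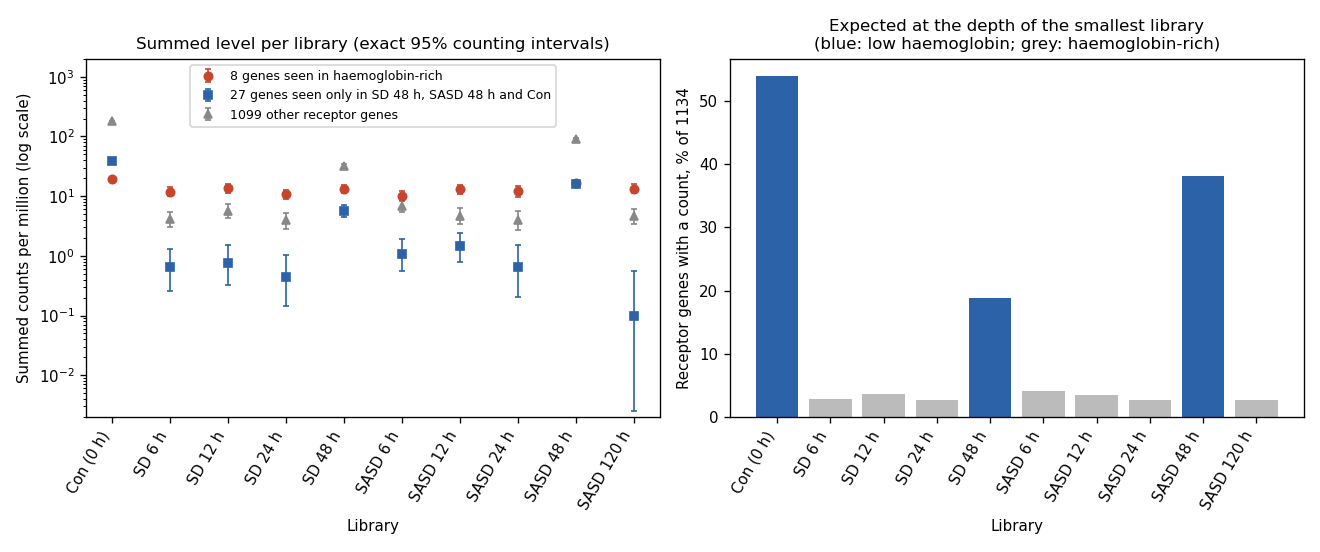
Left, summed CPM (log scale) of the 8 genes, the 27 genes and the 1099 other receptor genes in each library, with exact 95% counting intervals. Right, the share of the 1134 receptor genes with a count at the depth of the smallest library. Blue marks the 3 libraries of low haemoglobin share (18.9% to 54.0%) and grey the other 7 (2.65% to 4.18%). On the left the 8 genes change least from library to library, which the choice of genes favours.

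The 48 h libraries were set against Con, the control, within the 3 low-haemoglobin libraries. SD 48 h had 0.150 of the Con level of the 27 genes (0.118 to 0.188) and SASD 48 h had 0.411 (0.365 to 0.463). The choice of genes favours Con in both ratios, as Con brought in 26 of the 27. The 1099 genes that are not members, which the choice held below 1 CPM in every library, had ratios of 0.179 (0.162 to 0.198) and 0.512 (0.487 to 0.538). Between the 48 h libraries, SD over SASD was 0.365 (0.283 to 0.465) for the 27 and 0.350 (0.316 to 0.388) for the 1099.

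For the 8 genes the same ratios were closer to 1, at 0.689 (0.580 to 0.816) for SD 48 h over Con, 0.853 (0.748 to 0.972) for SASD 48 h over Con and 0.808 (0.675 to 0.964) for SD 48 h over SASD 48 h. The 8 were not of one kind. Olfr77 had ratios of 1.14 (0.723 to 1.76) for SD 48 h over Con and 0.601 (0.378 to 0.939) for SASD 48 h over Con, whereas Olfr98 had 0.384 (0.144 to 0.875) and 1.20 (0.743 to 1.94). Olfr56 had 0.804 (0.526 to 1.20) and 0.438 (0.285 to 0.659), and Olfr99 had 0.829 (0.594 to 1.14) and 1.04 (0.807 to 1.34).

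Other gene families were counted beside the Olfr genes, from symbol patterns. The vomeronasal receptors Vmn1r (208 genes), pheromone receptors of another organ of the nose, had ratios of 0.156 (0.125 to 0.192) for SD 48 h over Con and 0.496 (0.447 to 0.549) for SASD 48 h over Con. The hair keratin-associated genes Krtap (57 genes) had 0.148 (0.0528 to 0.337) and 0.485 (0.316 to 0.730), and the trace amine receptors Taar (15 genes) 0.165 (0.0431 to 0.449) and 0.577 (0.341 to 0.955). The beta-defensins Defb (42 genes) had 0.144 (0.0676 to 0.273) and 0.421 (0.300 to 0.583). The choice of genes lowers the ratios of the 27, so these 4 families are set beside the 1099 receptor genes that are not members. Their intervals take in the ratios of the 1099, 0.179 for SD 48 h over Con and 0.512 for SASD 48 h over Con. The choice acts on the 1099 as well, since it held them below 1 CPM, while no gene of the 4 families was left out. For all 1134 receptor genes, with none left out either, SD 48 h over Con was 0.216 (0.1998 to 0.234). This ratio lay above the Vmn1r interval and within those of Krtap, Taar and Defb. For SASD 48 h over Con the 1134 had 0.524 (0.501 to 0.547), which lay within the intervals of all 4 families. Vmn2r (120 genes), at 0.426 (0.392 to 0.462) and 0.648 (0.612 to 0.686), lay nearer to 1, and so did the bitter taste receptors Tas2r (35 genes) in SD 48 h at 0.527 (0.283 to 0.926), with 0.406 (0.237 to 0.672) in SASD 48 h.

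**Figure D4:**
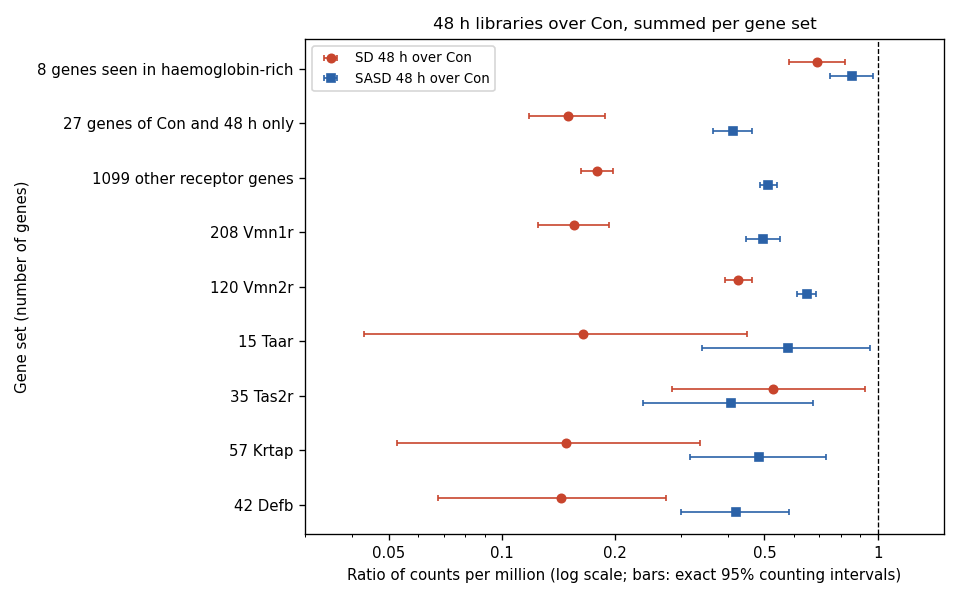
Ratio of CPM in SD 48 h (circles) and SASD 48 h (squares) over Con, on a log axis, for the receptor gene sets and 6 other families, with exact 95% counting intervals; the dashed line marks 1. The 27 genes lie at 0.150 and 0.411 and the 8 genes at 0.689 and 0.853.

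Per megabase of exon, the whole receptor family stood at 13.97, 33.8 and 64.6 CPM in SD 48 h, SASD 48 h and Con and at 4.14 to 5.47 CPM in the 7 haemoglobin-rich libraries. Vmn1r stood at 8.01 to 51.4 CPM per megabase in the 3 libraries against 0.211 to 1.59 in the 7. Krtap stood at 8.72 to 58.9 and Taar at 18.2 to 110.5, and neither had a count in the 7. Vmn2r stood at 53.3 to 125 CPM per megabase in the 3 libraries against 25.4 to 52.4 in the 7. The nearest of these, SD 48 h at 53.3 (49.4 to 57.4) and SD 6 h at 52.4 (48.0 to 57.0), overlapped in their counting intervals. In the 7 libraries the Vmn2r counts came from 6 (SASD 120 h) to 12 (SASD 6 h) of the 120 genes, and 3 genes reached 1 CPM there. Defb stood at 35.7 to 248 against 12.7 to 42.9 and Tas2r at 25.97 to 63.9 against 5.80 to 30.9, and for both of these the 3 libraries overlapped the 7. No gene of Krtap, Taar, Defb or Tas2r reached 1 CPM in any library.

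SD was tested against SASD over the 4 shared times, with time as a block, on 13370 genes whose mean count was 10 or more. By edgeR's quasi-likelihood test with Benjamini-Hochberg adjustment 0% of the genes were called at an adjusted p under 0.05, and 1082 had an unadjusted p under 0.05. DESeq2 called 1.40% of the genes (169 of 12074 with an adjusted p) and limma 0, in each case with 0 members; DESeq2 gave an adjusted p for Olfr56, Olfr164 and Olfr99 and none for Olfr457, Olfr77 and Olfr173, so its 0 rests on 3 genes. Of the 35 receptor genes 6 were tested, all among the 8, and 1 of these, Olfr164, had an unadjusted p under 0.05. For the 6 the log2 ratios of SD over SASD had a median of 0.11, against -0.00 for all genes tested. On simulated counts of this comparison the edgeR fit called 80 of 100 genes changed 2-fold and 99 of 100 changed 4-fold, among 13221 genes, with 14 false calls. The changed genes were drawn at random from genes of any mean count of 10 or more. These shares therefore do not tell how often a change in the 6 receptor genes would be called.

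The log2 ratio of SD over SASD for Olfr164 was -0.87 (SE 0.32, adjusted p = 0.555 by edgeR), with SD lower at all 4 times. It was 0.57 (SE 0.40, adjusted p = 0.758 by edgeR) for Olfr77 and 0.59 (SE 0.48, adjusted p = 0.793) for Olfr173. The value for Olfr173 rests on 6 h, with 18 counts in SD against 3 in SASD, and was 0.07 without that time. For Olfr457 it was 0.27 (SE 0.38, adjusted p = 0.881 by edgeR), for Olfr56 -0.12 (SE 0.34, adjusted p = 0.950) and for Olfr99 -0.05 (SE 0.22, adjusted p = 0.968). None of the 6 was called, which does not show that SD and SASD were alike for these genes. Summed over the 8 genes, SD over SASD was 1.17 (0.900 to 1.52) at 6 h, 0.887 (0.672 to 1.17) at 24 h and 0.808 (0.675 to 0.964) at 48 h. At 12 h it was 1.05, given with no interval. Olfr456 and Olfr77 are among the 8 only through SD 12 h, so the choice favours SD at that time, also in the log2 ratio of Olfr77 above. The sum at 48 h does not stand for each gene, as 4 of the 8 were higher in SD 48 h than in SASD 48 h. Olfr164 had a ratio of 0.345 (0.216 to 0.533) and Olfr98 0.320 (0.121 to 0.723). Olfr77 had 1.89 (1.13 to 3.17) and Olfr56 1.83 (1.11 to 3.03), and the intervals of the other genes took in 1.

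A fixed floor in CPM favours long genes, and the 27 are long. Their summed exon length had a median of 4342 bases, against 2875 for the 8 and 2937 for the 1099 that are not members, and 17 of the 27 are among the 284 longest of the 1134 genes (over 4167.5 bases). Ranked instead by CPM per kilobase of exon in Con, the 35 highest receptor genes hold 23 of the 35 members, 16 of the 27 and 7 of the 8. The first 4 were Olfr99 with 2.68 CPM per kb, Olfr282 with 1.95, Olfr164 with 1.64 and Olfr98 with 1.26. Olfr77, whose exons add up to 9649 bases, ranked 60 with 0.222 CPM per kb, and Olfr981 ranked 313 with 0.0754.

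Base composition and place are given as a description, with no test. The share of G and C in the longest transcript had a median of 44.4% in the 27, 41.95% in the 8 and 38.8% in the 1099, and 16 of the 27 are among the 282 receptor genes richest in G and C, when the 1126 genes without the 8 are cut into 4 bins by this share. From the poorest to the richest bin the level in SD 48 h was 6.72, 7.86, 11.3 and 17.7 CPM per megabase of exon, that in SASD 48 h was 19.5, 29.7, 28.7 and 43.9 and that in Con was 35.5, 53.2, 60.6 and 100.3.

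The distance to the nearest gene at 10 CPM or more in all 10 libraries had a median of 51684 bases for the 8, 136711 for the 27 and 356331 for the 1099. Of the 27, 14 are among the 282 genes nearest to such a gene, where the level in Con was 92.0 CPM per megabase of exon, against 50.3, 48.8 and 47.7 in the 3 bins further out. Olfr90, chosen here after its values were seen, is the member of the 27 nearest to such a gene, 8803 bases from Gabbr1, with no count in SD 48 h, 0.282 CPM in SASD 48 h and 1.05 CPM in Con.

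A cluster on chromosome 15 holds 5 of the 27 members among its 9 Olfr genes, and it was singled out after its values were seen. These members are Olfr279, Olfr281, Olfr282, Olfr283 and Olfr286. OR5BS1P, between Olfr281 and Olfr279, is named as a receptor but not as Olfr, so the rule and the values below leave it out. It had 1.02 CPM in Con, 0.282 CPM in SASD 48 h and no count in the other libraries. None of the 9 had a count in any of the 7 haemoglobin-rich libraries. The 9 together stood at 58.4 CPM per megabase of exon in SD 48 h, 143 in SASD 48 h and 357 in Con, against 10.03, 28.6 and 57.4 for the other 1117 receptor genes without the 8. The cluster lies between Asb8 and Kansl2, both at 10 CPM or more in all libraries, and its 9 Olfr genes hold 41.9% to 53.0% G and C. Chromosome 2, with 294 receptor genes, holds 4 members, and chromosome 7, with 243, holds 6; chromosomes 1, 10 and 19, with 27, 70 and 66, hold none.

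**Figure D5:**
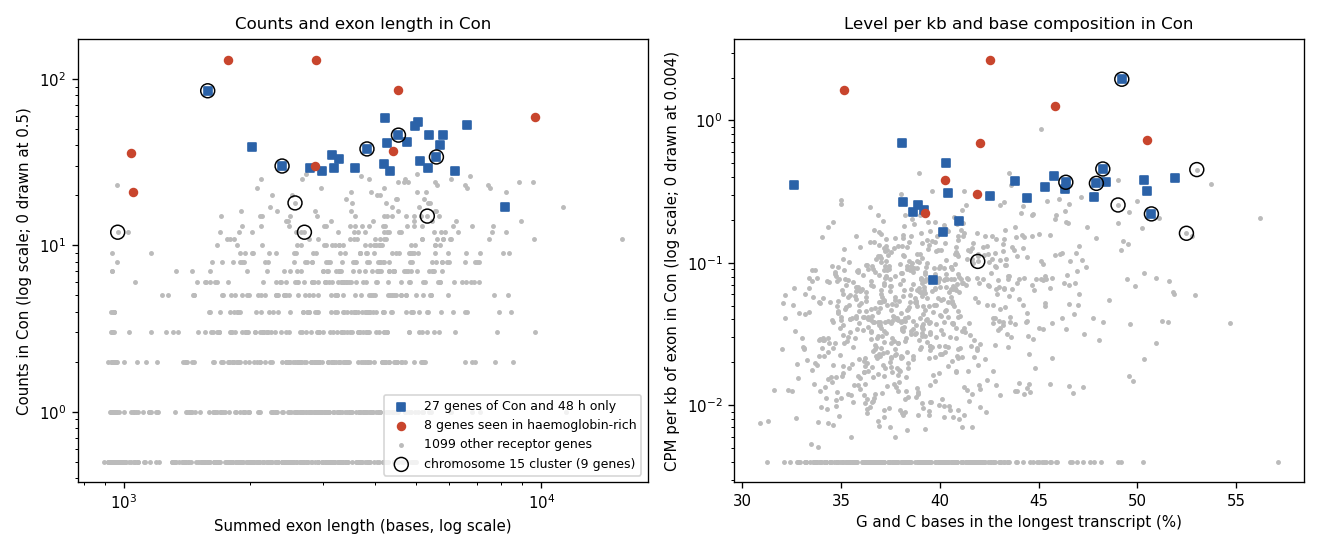
Left, counts in Con against summed exon length, both on log axes; right, CPM per kilobase of exon in Con (log axis) against the share of G and C in the longest transcript, with 1 point for each of the 1134 receptor genes. The 27 genes (squares) reach 17 to 85 counts in Con and the 8 genes (circles) 21 to 131. Black rings mark the 9 Olfr genes of the chromosome 15 cluster, of which Olfr282 is highest at 1.95 CPM per kb.

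Receptors studied outside the nose were looked up by name. Of 6 such genes Olfr544 is the only member, with 0.287 CPM in SD 48 h, 0.524 in SASD 48 h and 1.20 in Con, and at most 0.191 CPM in the other 7 libraries. Olfr2 had 0.0718, 0.0806 and 0.945 CPM and Olfr78 had 0.215, 0.484 and 0.400 CPM in SD 48 h, SASD 48 h and Con, and neither had a count in the other 7. Olfr1393 had counts in all 10 libraries, at 0.0957 to 0.473 CPM.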

How the data were processed

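RNA was sequenced from pooled mouse blood, 1 library per group. Per the submitters' processing notes the authors used Trimmomatic 0.39, STAR 2.7.9a and mm10. Per the file headers, the deposited raw counts are read pairs over exons per gene from featureCounts 2.0.3, with no strand option. CPM is a count over the library's total of the 32285 genes. Gene structures came from GENCODE mouse release 21, with G and C from the longest transcript; coding sequences were aligned with blastn 2.17.0. Receptor genes were those with a symbol of Olfr and a number. SD was tested against SASD with edgeR 4.0.16 (TMM, mean count of at least 10, time as a block, Benjamini-Hochberg), tested on simulated data, with DESeq2 1.42.0 and limma 3.58.1 as alternatives. The p-values ask whether a difference between SD and SASD was steady over the 4 times, with 1 pooled library per group, and do not measure the spread between mice. Members and lists were chosen with earlier results of these data known. Named genes were the 8, the 12 of the 27 with the highest mean over SD 48 h, SASD 48 h and Con, the genes nearest to the threshold, list genes and close neighbours. Intervals are 95% Clopper-Pearson and cover counting error only, since reads carried no molecular identifiers in the sources used here.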

Additional observations from a re-analysis of the deposited data

How the results depend on the processing

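The count of 35 members rests on the threshold, on the scaling of the libraries and on Con. It was 112 at 0.5 CPM and 7 at 2 CPM. With CPM scaled by TMM it was 25, as TMM lowers Con (factor 1.16) and SASD 48 h (1.15) the most. The count ran between 11 (without Con) and 35 with each library left out in turn. It was 8 without Con, SD 48 h and SASD 48 h together, an alternative chosen after seeing the data. The 8 seen in haemoglobin-rich libraries ranged between 6 and 8 with a library left out. For SD against SASD, edgeR called 0 genes, 389 with no count minimum (0 of 35 members, whose median log2 ratio was then -0.99), and DESeq2 169; leaving out a time gave 0 to 237 calls (237 without 6 h), none of a member, and a member median between -0.23 and 0.05. With a time left out the log2 ratio lay between -0.15 (without 12 h) and 0.48 for Olfr457, between -0.48 and 0.11 (without 12 h; 0.05 without 24 h) for Olfr56, and between -0.18 and 0.031 (without 48 h; 0.0015 without 24 h) for Olfr99, so these 3 changed sign. It kept its sign between -1.12 and -0.59 for Olfr164, and, without 6, 12 or 24 h, between 0.41 and 0.91 for Olfr77 and between 0.07 (without 6 h) and 0.91 for Olfr173; without 48 h the last 2 were under the count minimum and gave no value. The cause of these changes was not tested, beyond the smaller number of libraries. SD and SASD libraries were paired by time, as the block of each fit; the labels carry no replicate numbers to pair by. Levels of 1 CPM are 8 to 28 counts, which limits what a single gene can show.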

Other observations

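Receptor genes also surround the beta-globin genes on chromosome 7, whose RNA is abundant in red cell precursors. Within 250 kb of the 5 Hbb genes lie 31 receptor genes, of which 0 are members. They had 226 counts in SD 48 h, SASD 48 h and Con together, spread over 27 genes, and 9 counts in the 7 haemoglobin-rich libraries, from 3 genes. Per kilobase of exon these 9 counts come to 0.0823, against 0.110 for the 1126 receptor genes without the 8. As 7 of the 9 are of Olfr629, nothing is read from this difference. The member Olfr607 lies outside the 250 kb, 348372 bases from Hbb-bt. The highest of the 31 were Olfr642 at 0.909 CPM and Olfr620 at 0.800 CPM, both in Con.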
